A study of Mus musculus with 6 samples.

Results

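The genes described here encode solute carriers that move inorganic ions, phosphate, sulphate, zinc, iron and magnesium across membranes. They were chosen by name alone, as every gene of the deposited count table that belongs to 1 of 13 solute carrier families: 4, 8, 9, 11, 12, 20, 24, 26, 30, 34, 39, 40 and 41. That rule gave 69 genes of the 18448 in the table, and 58 of the 69 were expressed highly enough to be tested, among 14544 tested genes. GENCODE mouse release M21 lists 82 genes with such names, and the other 13 were not analysed here.

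RNA came from mouse jejunal organoids, which are epithelial cultures grown from the small intestine. In the 4OHT group, C57BL/6 organoids of genotype Villin-CreERT2; Hnf4aflox/flox had received 0.5 µM hydroxytamoxifen for 24 h, which activates the Cre recombinase and deletes Hnf4a. The DMSO group had the same strain and genotype and received the vehicle, so the inducible Cre and the floxed alleles were present in both groups. Both groups were split, grown with 200 ng/mL recombinant mouse Wnt3A and harvested at day 2 after passage, with 3 libraries each. The Cre is driven by the villin promoter, which is active in epithelial cells, and the labels do not say whether the replicates were separate organoid lines, animals or cultures. A p-value here therefore reflects only how far these 6 libraries spread, and that spread may be technical.

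Enterocytes absorb sodium chloride by pairing a sodium-proton exchanger with a chloride-bicarbonate exchanger on the apical (lumen-facing) membrane, while crypt cells secrete chloride that was loaded through the basolateral (blood-facing) membrane. Zinc enters the cytosol through ZIP carriers, the products of the Slc39 genes, and leaves it through ZnT carriers, the products of the Slc30 genes. Iron enters an enterocyte through the apical carrier DMT1 and leaves through ferroportin, and phosphate enters through sodium-phosphate cotransporters. Hnf4a encodes a nuclear receptor that is active in the villus epithelium.

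Library totals ran from 34912396 to 40276242 counts in 4OHT and from 31537100 to 36102703 counts in DMSO. Hnf4a stood at 436, 424 and 482 CPM (counts scaled to the normalised library size) in 4OHT replicates 1 to 3 and at 840, 846 and 1021 CPM in the DMSO replicates (log2 fold change -1.01, SE 0.0997, edgeR adjusted p = 0.0124). All 4OHT libraries were below all DMSO libraries. With 1 library left out its adjusted p was over 0.05 in 5 of 6 fits, at most 0.0951, and without DMSO replicate 3 it was 0.00543. The sum of the epithelial markers Epcam, Cdh1, Vil1, Krt8, Krt18 and Krt20 was 11029 to 13608 CPM in 4OHT and 9676 to 13160 CPM in DMSO, and the stromal, immune and endothelial marker lists each summed to at most 5.48 CPM in any library. Replicate 3, which stood apart in DMSO, was set against the mean log2 level of replicates 1 and 2 of its group. In 4OHT replicate 3, 1 of 58 carriers was at least 1.5-fold higher (3.76% of all tested genes) and 3 were at least 1.5-fold lower (3.17%). In DMSO replicate 3, 10 carriers were higher (7.43% of all tested genes) and 5 lower (6.45%). Of the 12 enterocyte markers, 11 were above replicates 1 and 2 in 4OHT replicate 3 (median 0.40 log2 units) and 12 in DMSO replicate 3 (median 0.92). This was not particular to enterocyte markers. All 7 goblet cell markers were above in both groups, with medians of 0.62 in 4OHT replicate 3 and 0.94 in DMSO replicate 3. The medians of the 5 stem cell markers were -0.80 and -0.44.

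Most carriers differed little between 4OHT and DMSO, though by share fewer did so than among all tested genes. The median log2 fold change was -0.01 over the 58 tested carriers and -0.0041 over all tested genes, with 28 carriers above 0 and 30 below. An absolute log2 fold change under 0.2 was found for 32 carriers, which is 55.2%, against 66.6% of all tested genes. An absolute value of 0.5 or more was reached by 11 of the 58 carriers, a larger share than the 11.6% of all tested genes. Calls were made by edgeR's quasi-likelihood F test, with Benjamini-Hochberg adjustment over all tested genes and a threshold of 0.05. Of the 58 carriers, 0 were called, beside 0.908% of all tested genes, of which 0.701% were higher and 0.206% lower in 4OHT. Limma-voom also called 0 (0.846% of all tested genes), and the smallest edgeR adjusted p was 0.105, for Slc26a2. Before adjustment, 7 carriers had p under 0.05 with a higher level in 4OHT (8.65% of all tested genes) and 4 with a lower level (6.35%).

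Libraries with the same replicate number deviated together in the 2 groups, so a second edgeR fit used the replicate number as a block. That fit called 7 of 58 carriers, or 12.1%, beside 6.99% of all tested genes. Higher in 4OHT were 5 carriers (background 3.99%), among them Slc26a2, Slc9a4, Slc39a10 and Slc39a1, and lower were Slc39a5 and Slc26a6 (2 carriers, background 3.0%). DESeq2 called Slc26a2 and Slc9a4 higher (background 3.19%) and Slc39a5 lower (background 1.76%). In the authors' deposited table, the same 3 genes had an edgeR adjusted p under 0.05 (3.65% of its genes in either direction) and Slc9a4 alone had a DESeq adjusted p under 0.05 (1.63%). With both replicate 3 libraries left out and no block, Slc26a2, Slc9a4 and Slc39a10 were called higher (2.59% of all tested genes) and Slc39a5 lower (1.51%). Adding the block to that fit called 9 carriers higher (10.1%) and 10 lower (8.16%). The blocked fit without both replicate 1 libraries called 1 higher (1.87%) and 5 lower (2.47%), and without both replicate 2 libraries it called 0 and 0, where 0.233% and 0.0685% of all tested genes were called; these last 2 fits were added after the data were seen.

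**Figure D1:**
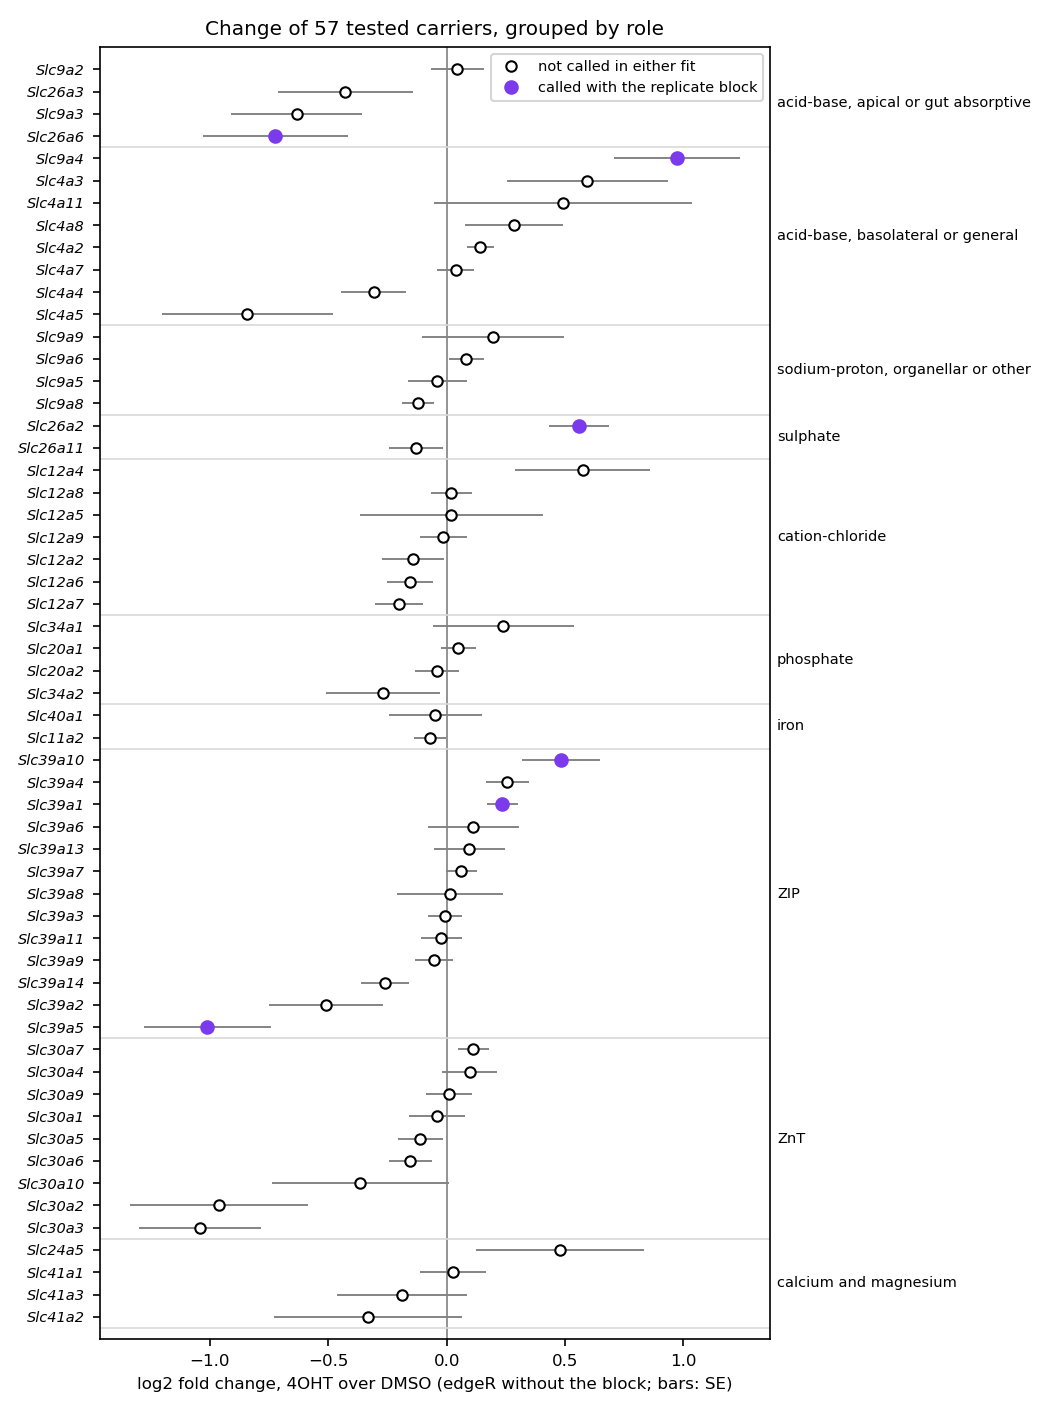
The log2 fold change, 4OHT over DMSO, is shown with its standard error for 57 tested carriers, from edgeR without the block, grouped by role. Filled points mark 6 carriers called once the replicate number was a block, from Slc9a4 (0.97) to Slc39a5 (-1.01), and open points the carriers called in neither fit.

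Levels differed far more between carriers than between the groups. Per kilobase of exon, the measure used to compare genes, the most abundant was Slc39a4, the apical ZIP4 carrier that takes up dietary zinc, with a mean of 76.0 CPM per kb in 4OHT and 63.6 in DMSO. Slc12a2, the basolateral sodium-potassium-chloride cotransporter NKCC1 that feeds chloride secretion, had 64.1 in 4OHT and 70.8 in DMSO, so the order of these 2 genes turned round in DMSO. Next in 4OHT came Slc39a1, the broadly expressed zinc importer ZIP1, with 46.7 in 4OHT and 39.7 in DMSO. Slc39a5, which encodes the basolateral zinc importer ZIP5, had 28.1 in 4OHT and 56.6 in DMSO. The order of neighbours was not firm: Slc39a11, Slc12a8 and Slc30a4 lay between 23.3 and 25.5 CPM per kb in both groups. A mean of at least 10 CPM per kb over the 6 libraries was reached by 15 of 69 carriers, and 11 of the 58 tested ones stayed under 1.

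**Figure D2:**
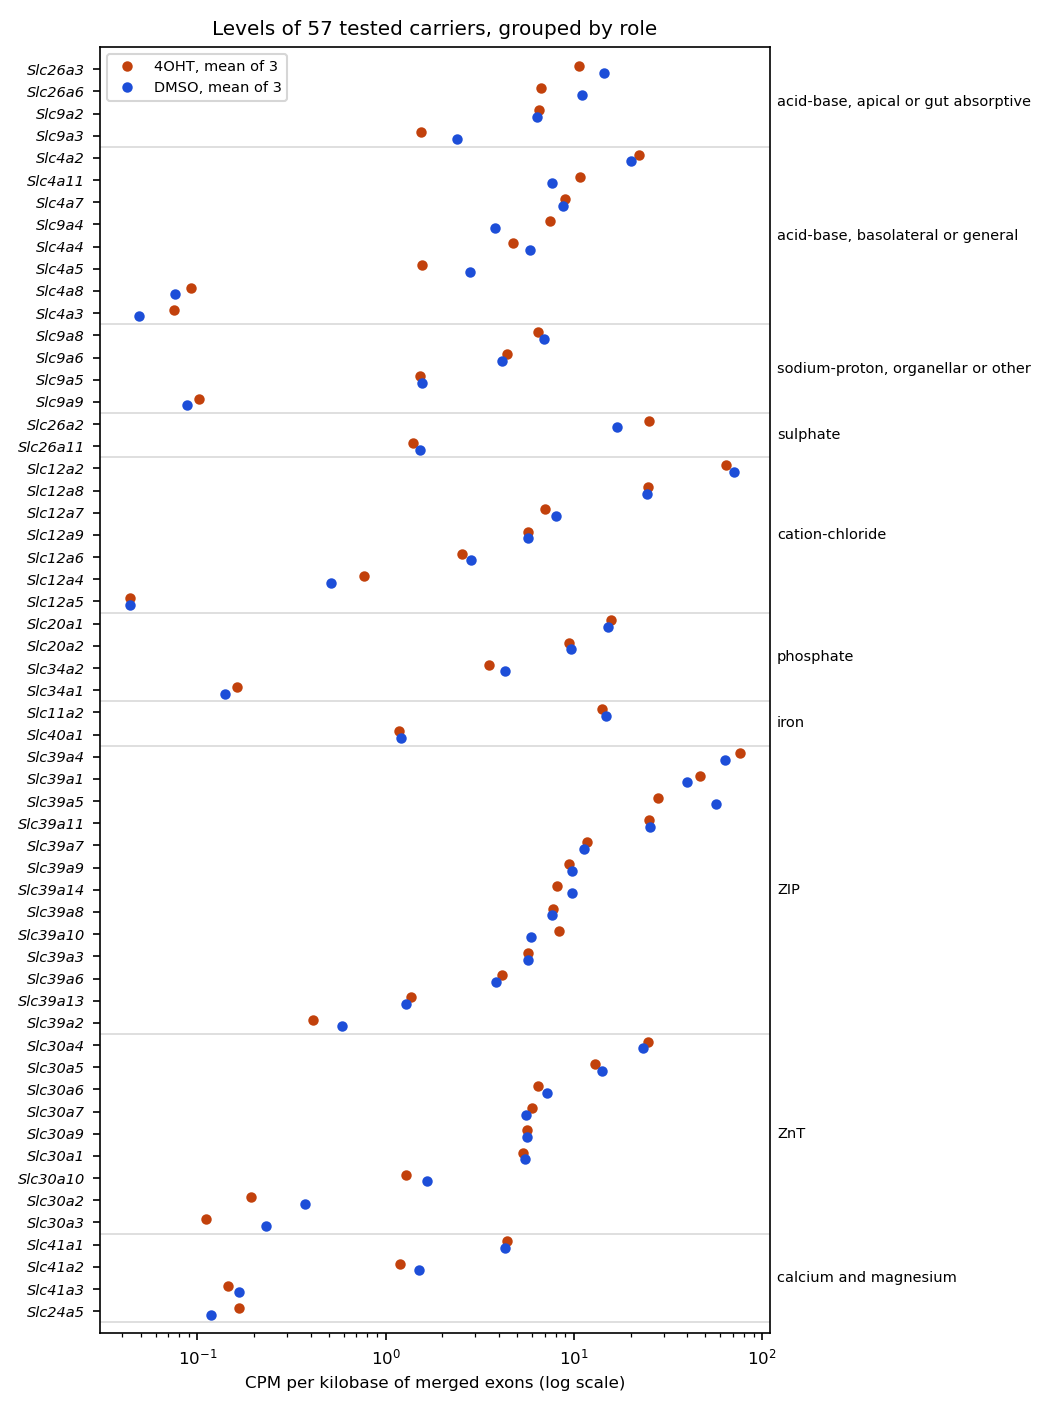
Mean CPM per kilobase of merged exons (log axis) is shown for 57 tested carriers, with 4OHT (3 libraries) drawn above DMSO (3 libraries) in each row, grouped by role. Slc39a4 (76.0 in 4OHT, 63.6 in DMSO) and Slc12a2 (64.1 in 4OHT, 70.8 in DMSO) are the most abundant, and for most genes the 2 points nearly coincide.

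Summed over all 69 carriers, the level was 3720, 3564 and 3705 CPM in 4OHT replicates 1 to 3 and 3617, 3586 and 3832 CPM in DMSO. Slc12a2 alone held 20.1% of the carriers' CPM. The 11 untested carriers, among them the sodium-calcium exchanger gene Slc8a1 and the kidney carrier genes Slc12a3 and Slc34a3, had 10 to 52 counts over all 6 libraries and at most 0.352 CPM in any. The others were Slc4a1, Slc4a9, Slc9a7, Slc24a1, Slc26a4, Slc26a8, Slc26a9 and Slc26a10. Of these, Slc26a9, an apical chloride transporter of the stomach and airways, had 7, 12 and 6 counts in 4OHT and 2, 4 and 0 in DMSO, too few for the test.

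Among the 13 ZIP genes, Slc39a5 had the lowest log2 fold change. Slc39a5 (ENSMUSG00000039878, chr10:128395931-128401229, minus strand, GRCm38) had 64.8, 49.0 and 73.5 CPM in 4OHT replicates 1 to 3, against 97.9, 98.4 and 181 CPM in DMSO. Every 4OHT library lay below every DMSO library, and DMSO replicate 3 was far above the other 2 of its group. The means were 62.4 ± 12.4 CPM in 4OHT and 126 ± 48.1 CPM in DMSO (SD, n = 3 each), a log2 fold change of -1.01 (SE 0.269, edgeR adjusted p = 0.146). Within same-numbered pairs the log2 ratios were -0.59, -1.003 and -1.30, and the blocked edgeR fit gave -0.97 (SE 0.129, adjusted p = 0.0191). Without both replicate 3 libraries the log2 fold change was -0.79 and the call was made with and without the block. With DMSO replicate 3 alone left out it was -0.66 (edgeR adjusted p = 0.0833, no block). The enterocyte markers had negative log2 fold changes for 12 of 12, with a median of -0.53. EdgeR called 0 of them and the block 3, all lower, beside 3.0% of all tested genes called lower with the block. Their summed level was 2954 to 4846 CPM in 4OHT and 4153 to 8538 CPM in DMSO. In DMSO replicate 3 they stood 0.92 log2 units above replicates 1 and 2 (median), and Slc39a5 stood 0.89 above. The goblet cell markers stood 0.94 above in that library (median). The part of either marker list in the Slc39a5 values was not tested. In bulk libraries, fewer cells of a type and less RNA per cell cannot be told apart.

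Slc39a10, which encodes the plasma membrane zinc importer ZIP10 (ENSMUSG00000025986, chr1:46807544-46892852, minus strand), had 49.9, 56.4 and 45.4 CPM in 4OHT and 38.9, 42.1 and 27.4 CPM in DMSO. The groups did not overlap, and replicate 3 was the lowest in each. The log2 fold change was 0.48 (SE 0.163, edgeR adjusted p = 0.233) and with the block 0.50 (SE 0.0805, adjusted p = 0.0275). Without DMSO replicate 3 it was 0.31 (edgeR adjusted p = 0.178, no block). Slc39a1 (ENSMUSG00000052310, chr3:90248172-90253612, plus strand) had 118, 102 and 112 CPM in 4OHT, against 95.2, 92.2 and 94.0 CPM in DMSO. Its 3 DMSO libraries were nearly level, and the difference was small, 0.24 on the log2 scale (SE 0.0653, edgeR adjusted p = 0.156, with the block 0.0482).

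Slc39a4, the main zinc uptake carrier of the intestine and the gene whose loss causes acrodermatitis enteropathica in people, had 216, 236 and 256 CPM in 4OHT and 208, 207 and 178 CPM in DMSO. No library of 4OHT fell below any of DMSO, but the gap between the nearest libraries was small, and the call was made in neither fit (log2 fold change 0.26, SE 0.0903, edgeR adjusted p = 0.249, with the block 0.156). Slc39a14, which encodes ZIP14, a carrier of zinc, iron and manganese, had a log2 fold change of -0.26 (edgeR adjusted p = 0.291, with the block 0.17). Over all 13 ZIP genes the median log2 fold change was 0.01, with 7 positive and 6 negative values; the block called 2 higher and 1 lower.

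Of the 9 ZnT genes, 0 were called in either fit, with 3 positive and 6 negative log2 fold changes. Slc30a1, which encodes the basolateral zinc exporter ZnT1, ranged from 27.5 to 28.9 CPM in 4OHT and from 25.3 to 34.3 CPM in DMSO (log2 fold change -0.04, SE 0.118). Slc30a5 and Slc30a4, which encode carriers of the secretory pathway and of vesicles, had log2 fold changes of -0.11 and 0.10. At very low levels, Slc30a3, known for loading zinc into synaptic vesicles, had 0.258, 0.337 and 0.352 CPM in 4OHT and 0.778, 0.599 and 0.585 CPM in DMSO. Its groups did not overlap, but neither fit called it (log2 fold change -1.04, SE 0.257, edgeR adjusted p = 0.123, with the block 0.099).

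**Figure D3:**
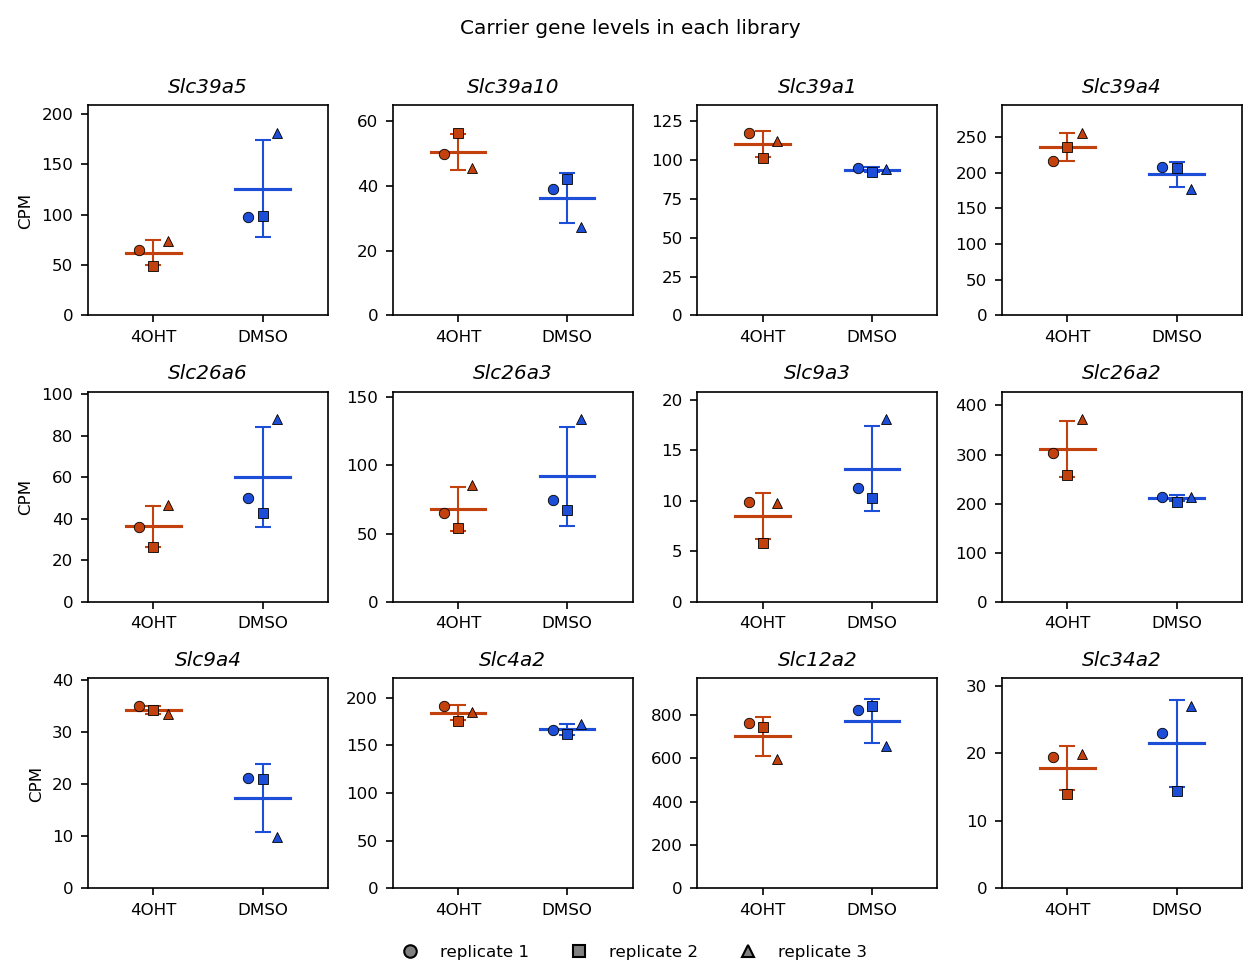
CPM in each library is shown for 12 carriers, with 4OHT left of DMSO; bars give the mean and SD of 3 libraries and symbols the replicate number. Slc39a5 lies between 49.0 and 73.5 CPM in 4OHT and between 97.9 and 181 CPM in DMSO, and replicate 3 is the highest DMSO library for Slc39a5, Slc26a6, Slc26a3 and Slc9a3 and the lowest for Slc9a4 and Slc39a10.

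Of the 4 apical exchangers of sodium chloride absorption, 1 was called lower with the block and 0 without it. Slc26a6 (ENSMUSG00000023259, chr9:108853283-108913049, plus strand), whose product exchanges chloride, bicarbonate and oxalate, had 36.0, 26.6 and 46.5 CPM in 4OHT and 49.9, 42.6 and 87.8 CPM in DMSO. The groups overlapped, because 4OHT replicate 3 exceeded DMSO replicate 2, yet each 4OHT library was below the DMSO library of the same number, with log2 ratios of -0.47, -0.68 and -0.91. The log2 fold change was -0.72 (SE 0.306, edgeR adjusted p = 0.333) and with the block -0.69 (SE 0.0879, adjusted p = 0.0176). Without DMSO replicate 3 it was -0.35 (edgeR adjusted p = 0.476, no block).

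Slc26a3, which encodes the chloride-bicarbonate exchanger DRA that is lost in congenital chloride diarrhoea, had 64.9, 54.0 and 85.6 CPM in 4OHT and 74.7, 67.2 and 133 CPM in DMSO. Its groups overlapped too, and neither fit called it (log2 fold change -0.43, SE 0.284, edgeR adjusted p = 0.536, with the block 0.057). Slc9a3, which encodes the sodium-proton exchanger NHE3, had 9.88, 5.84 and 9.74 CPM in 4OHT and 11.3, 10.3 and 18.1 CPM in DMSO. Its groups did not overlap, and again neither fit called it (log2 fold change -0.63, SE 0.278, edgeR adjusted p = 0.348, with the block 0.0671). Without DMSO replicate 3, and with no block, the log2 fold changes were -0.063 for Slc26a3 and -0.35 for Slc9a3. With both replicate 1 libraries left out, the blocked fit called Slc26a3 and Slc9a3 lower, as it did with both replicate 3 libraries left out. With both replicate 2 libraries left out, the blocked edgeR fit called neither (adjusted p = 0.173 for Slc26a3 and 0.262 for Slc9a3). The fits without replicate 1 and without replicate 2 were added after the data were seen. Slc9a2, which encodes the other apical exchanger NHE2, had a log2 fold change of 0.04 (SE 0.111, edgeR adjusted p = 0.891).

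DMSO replicate 3 stood above replicates 1 and 2 by 0.93 log2 units for Slc26a6, 0.91 for Slc26a3 and 0.74 for Slc9a3, but by 0.16 for Slc9a2. In 4OHT replicate 3 the deviations were 0.59 for Slc26a6, 0.53 for Slc26a3, 0.35 for Slc9a3 and 0.27 for Slc9a2. The enterocyte markers had a median deviation of 0.40 in 4OHT replicate 3 and 0.92 in DMSO replicate 3. Those of the goblet cell markers were 0.62 and 0.94. The median log2 fold change was -0.53 for the enterocyte markers and 0.81 for the goblet cell markers. The part of either list in the apical carriers' values was not tested.

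RefSeq promoters are shown from 250 bases before to 50 after an annotated start on GRCm38.p6, because HNF4 proteins bind DNA directly. They are those of Slc39a5 and Slc26a6, called lower with the block, of Slc39a10 and Slc39a1, called higher with it, and of Slc26a3. These genes are a selection: Slc9a4, also called higher with the block, had no promoter entry, and Slc26a2, called higher as well, and Slc30a3 are not shown. Capitals mark matches, on either strand, to CAAAG or to the 9-letter HNF4 motifs CAAAGTNCA and CAAAGGTCA, which both contain it.
Slc39a5, first start (chr10:128401175-128401474, minus strand): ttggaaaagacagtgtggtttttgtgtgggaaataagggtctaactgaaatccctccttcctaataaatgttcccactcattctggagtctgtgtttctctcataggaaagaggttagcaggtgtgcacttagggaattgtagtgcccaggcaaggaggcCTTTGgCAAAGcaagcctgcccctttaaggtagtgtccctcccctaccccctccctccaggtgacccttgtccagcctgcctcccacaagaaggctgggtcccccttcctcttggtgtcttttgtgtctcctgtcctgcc
Slc39a5, second start (chr10:128400417-128400716, minus strand): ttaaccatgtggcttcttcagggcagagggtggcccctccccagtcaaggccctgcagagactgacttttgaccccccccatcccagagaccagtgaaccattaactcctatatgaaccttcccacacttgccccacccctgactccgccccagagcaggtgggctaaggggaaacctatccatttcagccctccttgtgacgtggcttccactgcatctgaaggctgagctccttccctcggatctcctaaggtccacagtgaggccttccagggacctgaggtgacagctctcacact
Slc26a6 (chr9:108853793-108854092, plus strand): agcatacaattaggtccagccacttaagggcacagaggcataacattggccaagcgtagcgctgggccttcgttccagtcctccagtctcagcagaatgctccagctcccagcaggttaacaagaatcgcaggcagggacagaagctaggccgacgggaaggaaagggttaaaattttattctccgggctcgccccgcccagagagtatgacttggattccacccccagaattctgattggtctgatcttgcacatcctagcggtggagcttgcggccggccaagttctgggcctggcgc
Slc39a10, first start (chr1:46925727-46926026, minus strand): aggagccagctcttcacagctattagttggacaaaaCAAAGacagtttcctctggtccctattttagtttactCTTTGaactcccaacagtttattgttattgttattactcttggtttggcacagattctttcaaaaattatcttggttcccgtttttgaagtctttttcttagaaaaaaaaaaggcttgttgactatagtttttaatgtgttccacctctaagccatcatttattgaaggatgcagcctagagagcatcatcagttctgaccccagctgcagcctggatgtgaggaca
Slc39a10, second start (chr1:46853569-46853868, minus strand): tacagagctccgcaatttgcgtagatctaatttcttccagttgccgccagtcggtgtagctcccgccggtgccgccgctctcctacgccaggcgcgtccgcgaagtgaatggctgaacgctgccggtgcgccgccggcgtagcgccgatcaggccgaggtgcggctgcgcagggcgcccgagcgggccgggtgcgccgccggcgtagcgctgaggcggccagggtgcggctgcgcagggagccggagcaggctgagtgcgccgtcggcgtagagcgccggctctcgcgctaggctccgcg
Slc39a1 (chr3:90247942-90248241, plus strand): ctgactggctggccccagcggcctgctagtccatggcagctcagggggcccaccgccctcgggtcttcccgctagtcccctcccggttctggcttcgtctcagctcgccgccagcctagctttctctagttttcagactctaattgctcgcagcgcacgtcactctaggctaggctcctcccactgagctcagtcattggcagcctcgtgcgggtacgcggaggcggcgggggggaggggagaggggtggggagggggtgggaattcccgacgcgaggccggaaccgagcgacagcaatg
Slc26a3 (chr12:31437969-31438268, plus strand): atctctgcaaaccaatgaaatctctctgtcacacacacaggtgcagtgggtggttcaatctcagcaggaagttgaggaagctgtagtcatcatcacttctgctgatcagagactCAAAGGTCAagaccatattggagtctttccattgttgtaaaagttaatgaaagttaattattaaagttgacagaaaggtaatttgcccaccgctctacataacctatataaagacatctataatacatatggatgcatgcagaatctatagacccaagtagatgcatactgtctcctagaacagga
The first Slc39a5 window holds CAAAG on both strands, 1 base apart, the second holds no match, and the Slc26a6 window holds none. The first Slc39a10 window also holds CAAAG on both strands, farther apart. That window starts at 46925727, outside the gene span given above, which ends at 46892852. The second Slc39a10 window and the Slc39a1 window hold no match. Slc26a3, called in neither fit, has CAAAGGTCA. Of 32851 RefSeq promoter windows of this length in mouse, CAAAG is found in 53.9%, CAAAGTNCA in 1.41% and CAAAGGTCA in 0.478%. The 52 carriers with a promoter entry have 64 windows, of which 26 hold CAAAG, 1 holds CAAAGTNCA (Slc30a3) and 1 holds CAAAGGTCA (Slc26a3). A match describes letters and is not a binding site.

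Of the 9 tested acid-base carriers that are basolateral or more general, edgeR on all 6 libraries called 2 higher with the block and 0 without it. Slc9a4 (ENSMUSG00000026065, chr1:40580081-40630725, plus strand), which encodes the basolateral sodium-proton exchanger NHE4 known from gastric parietal cells, had 35.0, 34.2 and 33.5 CPM in 4OHT and 21.3, 21.04 and 9.88 CPM in DMSO. The 4OHT libraries were nearly level, and DMSO replicate 3 was the lowest of all 6. The means were 34.2 ± 0.795 CPM in 4OHT and 17.4 ± 6.51 CPM in DMSO (SD, n = 3 each), a log2 fold change of 0.97 (SE 0.265, edgeR adjusted p = 0.15) that became 1.03 with the block (SE 0.211, adjusted p = 0.0459). Without DMSO replicate 3 the log2 fold change was 0.69 and the edgeR adjusted p was 0.00585, in a fit that called 1.71% of all tested genes higher. An antisense gene, Gm35801, and a transcript of unclear status, Gm37435, lie opposite 4.54% and 16.7% of the exon bases of Slc9a4, and the strand setting of the counting is not given in the sources used here.

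Slc4a2, which encodes the basolateral chloride-bicarbonate exchanger AE2, had 191, 176 and 185 CPM in 4OHT and 166, 162 and 173 CPM in DMSO. It was not called (log2 fold change 0.14, edgeR adjusted p = 0.316, with the block 0.119), and 13.7% of its exon bases lie opposite the gene Fastk.

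Bicarbonate importers gave a mixed picture. Slc4a4, the sodium-bicarbonate cotransporter NBCe1 of the basolateral membrane, had 50.3, 49.8 and 53.5 CPM in 4OHT and 55.5, 56.4 and 78.5 CPM in DMSO (log2 fold change -0.31, SE 0.136, edgeR adjusted p = 0.351, with the block 0.109; without DMSO replicate 3 and with no block -0.13). Slc4a7, the related cotransporter NBCn1, had a log2 fold change of 0.04. The largest standard error among the tested carriers belonged to Slc4a11, a member of the same family known from the corneal endothelium, which had 77.1, 50.1 and 34.8 CPM in 4OHT and 62.4, 40.3 and 12.1 CPM in DMSO. It was higher in 4OHT within each pair, but its 2 groups overlapped and neither fit called it (log2 fold change 0.49, SE 0.546, edgeR adjusted p = 0.728, with the block 0.154). Slc4a5, of the same family, was lower in 4OHT within each pair, but its groups overlapped and neither fit called it. Its log2 fold change was -0.84 (SE 0.36, edgeR adjusted p = 0.335, with the block 0.053). DMSO replicate 3 stood 1.21 log2 units above replicates 1 and 2. The blocked fit called Slc4a5 lower without both replicate 1 or both replicate 3 libraries, but not without both replicate 2 libraries. Slc4a5 and Slc4a11 were named after their values were seen.

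Of 2 sulphate carrier genes, edgeR on all 6 libraries called 1 higher with the block and 0 without it. This gene, Slc26a2, was also called without a block by DESeq2 (adjusted p = 0.00537). EdgeR without both replicate 3 libraries and without a block called it as well (adjusted p = 0.0464). Slc26a2 (ENSMUSG00000034320, chr18:61192919-61211612, minus strand), which encodes the plasma membrane sulphate transporter that supplies sulphation of proteoglycans and mucins, had 304, 257 and 372 CPM in 4OHT and 214, 204 and 215 CPM in DMSO. All 4OHT libraries were above all DMSO libraries, which were level, whereas 4OHT replicate 3 was the highest. The means were 311 ± 57.4 CPM in 4OHT and 211 ± 6.24 CPM in DMSO (SD, n = 3 each), a log2 fold change of 0.56 (SE 0.127, edgeR adjusted p = 0.105) and 0.54 with the block (SE 0.0889, adjusted p = 0.0285). Slc26a11, a sulphate transporter found in lysosomes, had a log2 fold change of -0.13. The markers of goblet cells, which secrete mucus, had positive log2 fold changes for 7 of 7 (median 0.81). EdgeR called 0 of them and the block 6, beside 3.99% of all tested genes called higher with the block. The summed level of these markers was 3619 to 6131 CPM in 4OHT and 2229 to 4201 CPM in DMSO. In DMSO replicate 3 these markers stood 0.94 log2 units above replicates 1 and 2 (median), and Slc26a2 stood 0.04 above. In 4OHT replicate 3 the deviations were 0.62 for the markers (median) and 0.41 for Slc26a2. The part of the goblet cell markers in the Slc26a2 values was not tested.

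**Figure D4:**
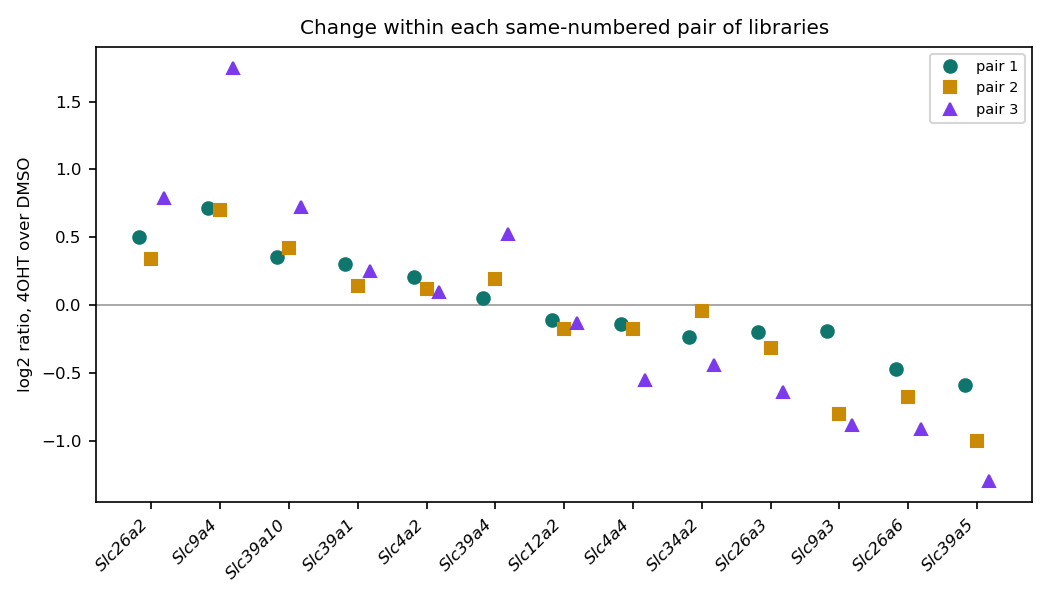
The log2 ratio of 4OHT over DMSO (pseudocount 0.1 CPM) is shown within each pair of same-numbered libraries for 13 carriers. For Slc39a5 and Slc26a6 all 3 ratios are negative, for Slc26a2 and Slc9a4 all 3 are positive, and pair 3 is the farthest from 0 for each of these 4 genes.

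Of the 7 tested cation-chloride cotransporter genes, 0 were called in either fit. Slc12a2 had 760, 743 and 598 CPM in 4OHT and 822, 841 and 655 CPM in DMSO. Replicate 3 was the lowest in each group, and the ratios within pairs were -0.11, -0.18 and -0.13 on the log2 scale. The log2 fold change was -0.14 (SE 0.131, edgeR adjusted p = 0.67, with the block 0.155). Slc12a7, which encodes the potassium-chloride cotransporter KCC4, had a log2 fold change of -0.20 (edgeR adjusted p = 0.417, with the block 0.0803), and Slc12a8 of 0.02. Over 7 tested genes of the family the median was -0.01.

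The phosphate and iron carriers had no call in either fit. Slc34a2, which encodes the apical cotransporter NaPi-IIb that takes up dietary phosphate, had 19.5, 14.0 and 19.9 CPM in 4OHT and 23.0, 14.5 and 27.0 CPM in DMSO (log2 fold change -0.27, SE 0.24, edgeR adjusted p = 0.656, and -0.49 to -0.078 with 1 library left out). Slc20a1 and Slc20a2, which encode the widely expressed phosphate carriers PiT1 and PiT2, had log2 fold changes of 0.05 and -0.04. Slc11a2, the gene of DMT1, ranged from 85.4 to 92.7 CPM in 4OHT and from 89.4 to 101 CPM in DMSO (-0.07), and Slc40a1, the gene of ferroportin, from 8.48 to 13.7 CPM in 4OHT and from 9.45 to 12.2 CPM in DMSO (-0.05). Slc41a1, which encodes a magnesium carrier, had a log2 fold change of 0.03. On the opposite strand, 1700034H15Rik covers 8.92% of the exon bases of Slc30a1, Gm5475 covers 6.33% of those of Slc11a2, and for Slc20a1 9830144P21Rik covers 8.1% and Gm4430 covers 5.02%.

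Counted by overlap, 7 carriers had all 4OHT libraries above all DMSO libraries (12.5% of all tested genes did) and 5 had them below (10.1%), in all 20.7% of carriers against 22.6% of tested genes. They included Slc26a2, Slc9a4, Slc39a10, Slc39a1, Slc39a4 and Slc4a2 above, and Slc39a5, Slc9a3, Slc4a4, Slc30a2 and Slc30a3 below. Within same-numbered pairs, 18 carriers were higher in 3 of 3 (25.3% of all tested genes) and 18 lower in 3 of 3 (24.5%).

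The deviation of replicate 3 had the same sign in both groups for 41 of 58 carriers, or 70.7%, against 67.3% of all tested genes. Across the 58 carriers the deviations in 4OHT and in DMSO correlated with Pearson's r = 0.55, against 0.44 over all tested genes; the genes share the same libraries and are not independent replicates. Slc4a11 was the farthest below, at -0.84 log2 units in 4OHT and -2.04 in DMSO. Slc41a2, a magnesium carrier, stood at 0.44 in 4OHT and 1.36 in DMSO, and Slc30a10, a manganese exporter, at -0.52 in 4OHT and 1.14 in DMSO.

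**Figure D5:**
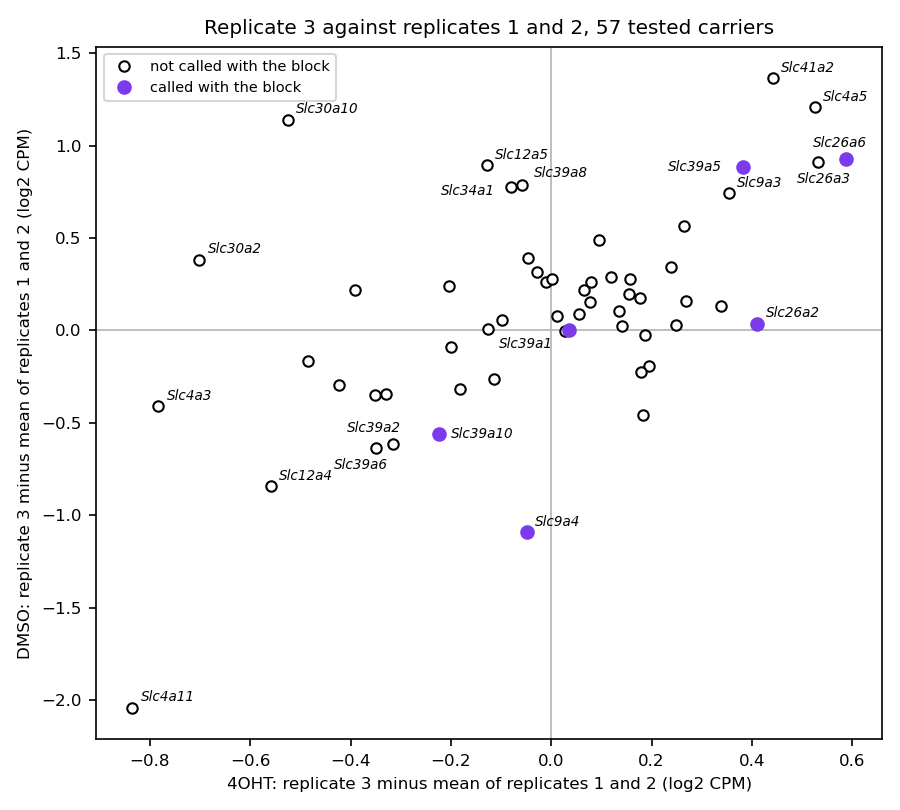
For each of 57 tested carriers, log2 CPM of replicate 3 minus the mean of replicates 1 and 2 is shown for 4OHT (horizontal) and DMSO (vertical); filled points are the carriers called with the block. Slc4a11 (-0.84 in 4OHT, -2.04 in DMSO) lies lowest, Slc9a4 deviates in DMSO alone (-0.05 in 4OHT, -1.09 in DMSO), and Slc39a5, Slc26a6, Slc26a3 and Slc9a3 lie together at the upper right.

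The genes that work with these carriers were read from 10 lists of 76 symbols, of which 67 had a row and 61 were tested. These lists were chosen with earlier results of these data known. EdgeR called 0 of the 61, beside 0.908% of all tested genes. An unadjusted edgeR p under 0.05 was found for 26 of the 61. Of all tested genes, 8.65% had such a p with a higher level in 4OHT and 6.35% with a lower level. The block called 15 partners, or 24.6%, 5 of them higher and 10 lower, beside 6.99% of all tested genes. The metallothionein genes encode zinc-binding proteins and are themselves induced by zinc, and 3 were called lower with the block. Mt1 had 168, 157 and 200 CPM in 4OHT and 237, 250 and 536 CPM in DMSO, with a log2 fold change of -0.96 (edgeR adjusted p = 0.22, with the block 0.0448). Mt2 had 96.9, 75.2 and 119 CPM in 4OHT and 154, 172 and 406 CPM in DMSO, with a log2 fold change of -1.33 (edgeR adjusted p = 0.168, with the block 0.0272). Every 4OHT library was below every DMSO library for both, and DMSO replicate 3 was the highest by far. Mt4, at most 1.07 CPM, was also called lower with the block (adjusted p = 0.0388), and Mtf1, the zinc-sensing factor, had a log2 fold change of 0.03.

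Among the partners of the apical exchangers, the scaffold gene Pdzk1 had 6.24, 5.96 and 6.27 CPM in 4OHT and 8.73, 10.2 and 14.5 CPM in DMSO (log2 fold change -0.85, edgeR adjusted p = 0.0995, with the block 0.0379). Chp2, which encodes a calcineurin-like cofactor of sodium-proton exchangers, averaged 40.9 ± 14.7 CPM in 4OHT and 68.8 ± 23.8 CPM in DMSO (SD, n = 3 each; log2 fold change -0.75, edgeR adjusted p = 0.334, with the block 0.00732). Both were below DMSO within every pair, though the groups of Chp2 overlapped. Other scaffold genes gave small or opposite values, with a log2 fold change of -0.08 for Slc9a3r1 and 0.28 for Ezr, neither called in either fit.

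Of the 11 tested genes in the list of chloride channels and their regulators, the block called 2 higher and 1 lower. Of all tested genes it called 3.99% higher and 3.0% lower. Clca1, a secreted protein of goblet cells, had 468, 356 and 780 CPM in 4OHT and 171, 175 and 288 CPM in DMSO (log2 fold change 1.34, edgeR adjusted p = 0.118, with the block 0.00581). Fxyd3, a regulator of the sodium pump, was higher by 0.41 (edgeR adjusted p = 0.0716, with the block 0.0193), and Clca4b lower, at -0.67 (edgeR adjusted p = 0.242, with the block 0.00863). The chloride channel gene Cftr was not called, with 139, 134 and 129 CPM in 4OHT and 144, 146 and 141 CPM in DMSO (log2 fold change -0.10).

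The remaining partners called with the block came from the calcium, magnesium, iron, sodium channel and carbonic anhydrase lists. For calcium, S100g, which encodes the calcium buffer calbindin-D9k, had 3.78, 3.82 and 5.69 CPM in 4OHT and 8.12, 7.95 and 12.7 CPM in DMSO (-1.11, edgeR adjusted p = 0.0992, with the block 0.00863), and Vdr, the vitamin D receptor gene, had a log2 fold change of -0.60 (with the block, adjusted p = 0.0486). The magnesium channel gene Trpm6 had 16.6, 18.5 and 17.5 CPM in 4OHT and 30.8, 30.97 and 21.4 CPM in DMSO (-0.66, edgeR adjusted p = 0.0997, with the block 0.0393). For iron, the transferrin receptor gene Tfrc had a log2 fold change of -0.27 (with the block, adjusted p = 0.0376) and Epas1, which encodes an oxygen-regulated activator of iron uptake genes, 0.54 (with the block, 0.0282). Scnn1a, a subunit of the epithelial sodium channel, had 10.5, 8.54 and 9.82 CPM in 4OHT and 4.64, 4.71 and 6.40 CPM in DMSO (0.88, edgeR adjusted p = 0.0654, with the block 0.0245), and Car8, a carbonic anhydrase relative without enzyme activity, had a log2 fold change of 0.60 (with the block, adjusted p = 0.00581). The sodium pump list held 0 calls in either fit, and its subunit gene Atp1b1 had a log2 fold change of -0.27 (edgeR adjusted p = 0.309, with the block 0.0616).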

How the data were processed

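Poly(A) RNA of 6 organoid libraries was sequenced with directional kits, per the labels' protocols. STAR 2.4.0f1, bcl2fastq 1.8.4 and GRCm38 are named in the submitters' processing notes; the counting program and its strand setting are not given in the sources used here. Raw counts per gene were deposited by the authors, per the file headers. They also deposited a log2 fold change and adjusted p-values from edgeR and DESeq, per the file headers, which were only set beside the results. A normalised score per gene and library was deposited as well; from its values it is the raw count divided by a factor per library and rounded by the authors, and it was not used. The tests ran in edgeR 4.0.16 under R 4.3.3 (filterByExpr, TMM, quasi-likelihood F test, Benjamini-Hochberg over 14544 tested genes, adjusted p under 0.05). CPM use TMM library sizes, and levels per kilobase use merged GENCODE M21 exons. Limma 3.58.1, DESeq2 1.42.0, other scalings, filters and left-out libraries were alternatives.

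Replicates 1 to 3 occur in both groups, and the labels do not say what a number marks. Between same-numbered libraries, deviations from the group mean correlated at 0.30, 0.33 and 0.43 over genes, so the numbers were taken to pair them. Values of the blocked fit stand beside the results where they changed a call.

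The carriers, lists and tests were chosen with earlier results of these data known. Named carriers are those called in either fit, textbook carriers of the small intestine, and the 8 highest per kilobase and the 8 with the smallest p; named partners are up to 3 of each list with the smallest p among those called, and a few more genes were picked with their values known. Lists were made for the sodium and potassium gradient, chloride channels, apical scaffolds, carbonic anhydrases, calcium, magnesium, sodium channel, iron, zinc and phosphate genes. The counts include 1 carrier that is not reported here.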

Additional observations from a re-analysis of the deposited data

How the results depend on the processing

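With 3 libraries a group and 1 library far from its group, calls depended on the model. The carriers called higher and lower were 0 and 0 in edgeR without a block, 5 and 2 with the replicate block, 2 and 1 in DESeq2, 3 and 1 with both replicate 3 libraries left out, and 9 and 10 when the block was added to that. The blocked fit gave 1 and 5 without both replicate 1 libraries and 0 and 0 without both replicate 2 libraries; these 2 settings were chosen after seeing the data, and blocked fits on 2 pairs have few residual degrees of freedom. Partner genes called higher and lower were 5 and 10 with the block, 5 and 4 in DESeq2, 5 and 8 without both replicate 3 libraries, 13 and 18 with the block added, and in the blocked fit 4 and 7 without both replicate 1 libraries and 1 and 0 without both replicate 2 libraries. Of all tested genes, 3.99% and 3.0% were called higher and lower with the block, and 3.19% and 1.76% in DESeq2. Without both replicate 3 libraries the shares were 2.59% and 1.51%, and 10.1% and 8.16% with the block added. In the blocked fit they were 1.87% and 2.47% without both replicate 1 libraries, and 0.233% and 0.0685% without both replicate 2 libraries. Leaving out 1 library at a time gave 0 to 1 carriers higher and 0 to 0 lower, and 0 to 5 partner genes higher and 0 to 2 lower. The median log2 fold change of the carriers ran from -0.060 to 0.054 over those fits. It was 0.036 without both replicate 3 libraries (0.035 with the block), and in the blocked fit -0.043 without both replicate 1 and -0.034 without both replicate 2 libraries. The cause of these differences was not tested.

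Hnf4a kept its direction in every fit run, and its adjusted p rose to as much as 0.0951 with 1 library left out. Directions changed for 9 of the carriers examined, each with values near 0 and none with an adjusted p under 0.31. Without both replicate 3 libraries, Slc9a2 had a log2 fold change of -0.00071 (with the block -0.0060), Slc20a1 -0.0287 (-0.0294), Slc30a1 0.11 (0.11) and Slc39a11 0.038 (0.038). In the blocked fit without both replicate 1 libraries, Slc9a2 had -0.019, Slc12a8 -0.0497, Slc40a1 0.0076 and Slc41a1 -0.00082. Leaving out 1 library gave ranges of -0.024 to 0.093 for Slc4a7, -0.049 to 0.15 for Slc9a2, -0.060 to 0.11 for Slc12a8, -0.015 to 0.11 for Slc20a1, -0.13 to 0.025 for Slc20a2, -0.13 to 0.095 for Slc30a1, -0.075 to 0.065 for Slc39a11, -0.28 to 0.089 for Slc40a1 and -0.088 to 0.14 for Slc41a1. With no change of direction, values ran from -0.25 to -0.040 for Slc12a2, -0.26 to -0.11 for Slc12a7, -0.11 to -0.023 for Slc11a2, 0.013 to 0.22 for Slc30a4 and -0.16 to -0.013 for Slc30a5. Scaling by DESeq2 size factors or library totals, limma-voom and the absence of a filter made no call among the carriers examined here, and a filter at 10 CPM left out Slc30a3. Depth limits the 11 untested carriers, which had at most 52 counts over all libraries.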
